A study of Mus musculus with 6 samples.

Results

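The AP-1 family was represented by 9 genes, Fos, Fosb, Fosl1, Fosl2, Jun, Junb, Jund, Atf3 and Batf, of the 55487 genes in the count table. They were taken by name through the GENCODE M21 annotation, with earlier results of these data known, and each matched a single gene of the table. Their levels were compared between a control group and a group of mice fasted for 6 h, with 3 libraries each. All mice were wild-type C57BL/6 animals aged 8 weeks, and the cells were labelled as megakaryocyte-erythroid progenitors (MEP), the marrow cells that give rise to red cells and platelets, sorted from bone marrow. The labels name no sex, batch or pooling and do not say that each library came from its own mouse, so the p-values below measure the spread between these libraries, which may be partly technical.

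AP-1 is a transcription factor made of 2 proteins with a basic DNA-binding region and a leucine zipper (bZIP). JUN proteins pair with each other or with FOS, ATF or BATF proteins, whereas FOS proteins need a JUN partner. Fos, Fosb, Jun, Junb and Atf3 are immediate early genes: growth factors, cytokines and stress switch them on within minutes through MAP kinases, without new protein synthesis, and their mRNAs are short-lived. In blood cells AP-1 takes part in proliferation, in the response to cytokines and in myeloid differentiation. Handling of live cells, such as enzymatic dissociation or long sorting, is also known to induce these genes.

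The promoters of Fos and Jun are shown as examples, Fos because its level per length was the highest of the family and Jun because its groups did not overlap. The sequences are the 250 bases before the transcription start in RefSeq on GRCm38.p6, written on the strand of the gene, Fos from chr12:85473640-85473889 (plus strand) and Jun from chr4:95052223-95052472 (minus strand). Capitals mark matches to TGACG (the first bases of the cAMP response element), to TGACNTCA and to TATAAA.
Fos: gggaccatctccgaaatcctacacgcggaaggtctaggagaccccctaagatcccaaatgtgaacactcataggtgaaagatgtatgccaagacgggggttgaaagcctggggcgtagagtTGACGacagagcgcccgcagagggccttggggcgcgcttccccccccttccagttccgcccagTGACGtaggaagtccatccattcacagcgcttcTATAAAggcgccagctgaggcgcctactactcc
Jun: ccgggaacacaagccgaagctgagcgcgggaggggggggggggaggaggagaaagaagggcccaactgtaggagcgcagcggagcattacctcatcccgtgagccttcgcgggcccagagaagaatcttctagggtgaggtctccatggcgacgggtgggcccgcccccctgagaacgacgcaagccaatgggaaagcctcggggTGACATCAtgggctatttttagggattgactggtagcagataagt
The Fos window held TGACG at bases -129 to -125 and -66 to -62 and TATAAA at -33 to -28, counted back from the start. The Jun window held TGACATCA, a match to TGACNTCA, at -45 to -38. Neither window held TGANTCA, the AP-1 motif, or TGACGTCA, the full cAMP response element, and neither held a CArG box, the site of serum response factor. Bases farther upstream were not searched, so sites there would be missed. Among 32851 RefSeq promoter windows of the same length, on both strands, 17.8% held TGACG, 7.49% TGACNTCA, 12.4% TATAAA, 6.75% TGANTCA, 1.55% TGACGTCA and 1.47% a CArG box. TGACNTCA includes every TGACGTCA, and TGACG overlaps both where its letters fit. TGACG, TGACNTCA and TATAAA were chosen after the sequences had been seen. Of the 9 genes, 8 had a RefSeq window (not Fosl1), and TGACG was also present in those of Fosb, Junb, Atf3 and Batf.

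Total gene counts per library ran from 12797144 to 30246110 (30.2 M). Control libraries were deeper, with a mean of 26.3 M ± 3.90 against 15.3 M ± 2.74 for fasted libraries (SD, n = 3 each). A background of counts in genes silent in blood, measured on 1437 odorant and vomeronasal receptor genes, was 8.98 to 15.97 counts per kilobase, lowest in control library 1. Scaled to all annotated exons it made up 6.35% ± 2.36 of control and 13.1% ± 1.54 of fasted counts (SD, n = 3 each). Tests were therefore run on the 10637 genes whose mean count was at least 5 times this background. Levels are in CPM, which scales each library to the same total over these genes after TMM adjustment, and levels between genes are given per kilobase of exon. Of the MEP and erythroid markers, 9 of 10 lay above the limit and 0 passed the edgeR test (median log2 fold change -0.05), with a summed level of 2896 to 4706 CPM in control and 3784 to 5258 CPM in fasted libraries. Granulocyte and monocyte markers were also present, all 12 above the limit. Of these, 7 had an unadjusted edgeR p under 0.05, against 19.8% of all genes tested. After adjustment 0 of these markers passed, and their median log2 fold change was -2.06. They had sums of 3832, 12230 and 18593 CPM in control and 4591, 2982 and 1683 CPM in fasted libraries 1, 2 and 3. Of 11 lymphocyte markers 8 lay below the limit, Pax5 and Cd3e among them. The sums of 3 further marker lists did not overlap between the groups, and 0 of their genes above the limit passed the edgeR test. Megakaryocyte markers summed to 450 to 581 CPM in control and 296 to 446 CPM in fasted libraries. Mast cell and basophil markers summed to 222 to 326 CPM in the controls and 148 to 202 CPM in the fasted group. Lymphocyte markers were the ones with higher fasted sums, at 132 to 214 CPM against 72.3 to 113 CPM. In bulk RNA, a change in the share of a cell type and a change in RNA per cell cannot be told apart.

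Fos, Jun and Junb were the most abundant of the 9 genes, Fosl1, Fosl2 and Jund were near the background, and 8 of the 9 were lowest in the same control library. Summed over the 9 genes, control libraries 1, 2 and 3 held 1589, 4652 and 4095 CPM, and fasted libraries 1, 2 and 3 held 6008, 5877 and 5914 CPM. The fasted libraries lay close together and above every control library, and control library 1 lay far below the other 2 controls. The group means were 3445 CPM ± 1631 and 5933 CPM ± 67.3 (SD, n = 3 each), a ratio of 1.72. Without control library 1 the ratio was 1.36. Control library 1 had the lowest level of the 6 libraries in 6 of the 7 AP-1 genes above the background limit, against 26.8% of all 10637 genes tested, and in both members below it. The exception was Batf, which was highest there.

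**Figure D1:**
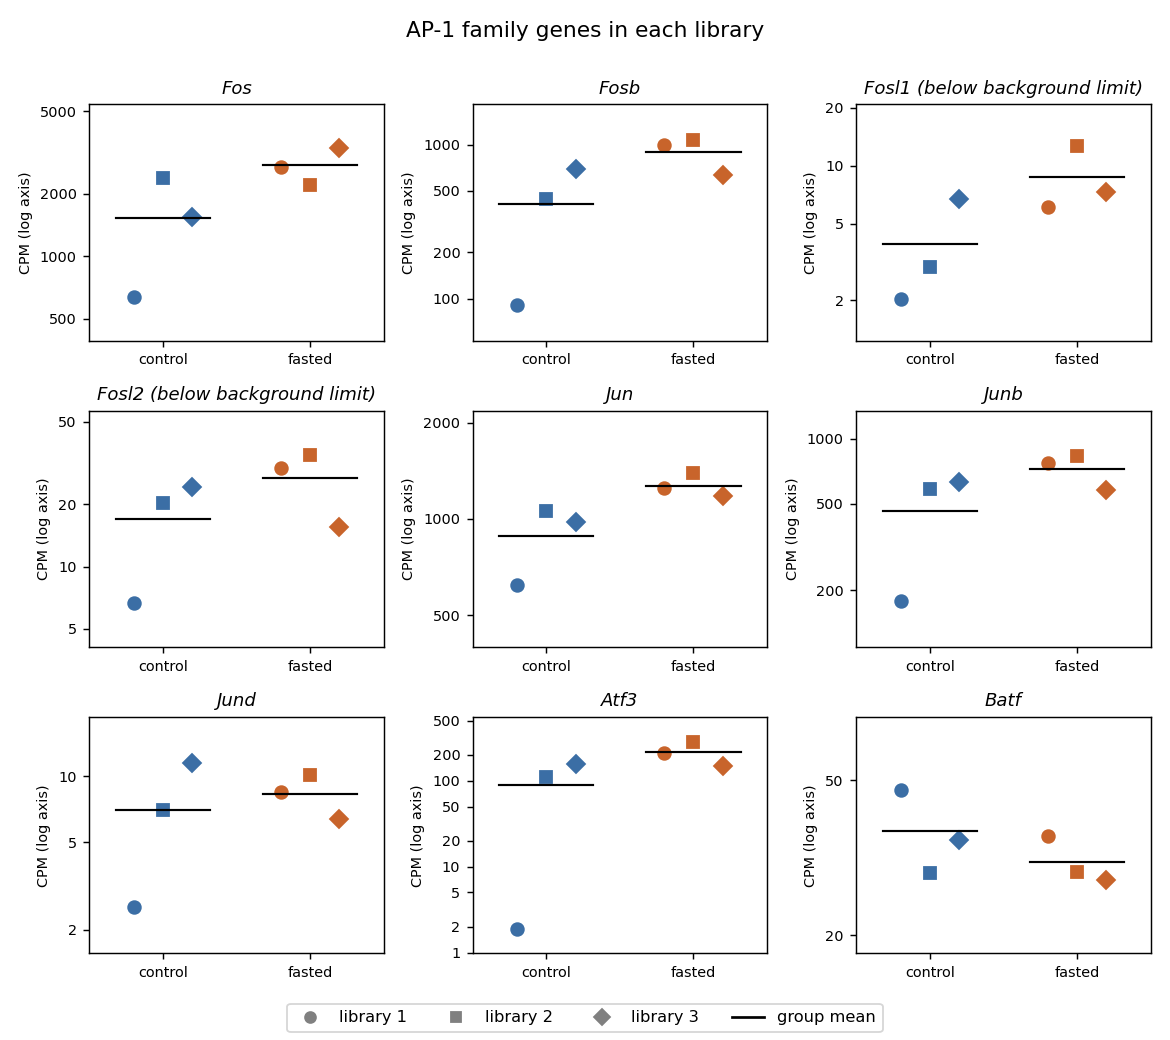
Level of each AP-1 gene in CPM on a log axis, with one symbol per library (circle 1, square 2, diamond 3), control in blue and fasted in orange, and the group mean as a line. Control library 1 is the lowest point in 8 panels, by the widest margin for Atf3 (1.89 CPM), and the highest point for Batf (47.2 CPM).

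FOS genes encode the partners that make AP-1 stable on DNA. Fos (ENSMUSG00000021250.13, GRCm38 chromosome 12, 85473890 to 85477273, plus strand) had 639, 2397 and 1553 CPM in control libraries 1, 2 and 3 and 2708, 2210 and 3320 CPM in fasted libraries 1, 2 and 3. Control library 2 lay inside the fasted range, so the groups overlapped. The log2 fold change of Fos, fasted minus control, was 0.84 (SE 0.46), and it did not pass edgeR's quasi-likelihood test (adjusted p = 0.349, Benjamini-Hochberg over all genes tested). Without control library 1 it was 0.48 (SE 0.23, edgeR adjusted p = 0.337).

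Fosb (ENSMUSG00000003545.3, chromosome 7, 19302696 to 19310051, minus strand), whose protein takes the place of FOS in the dimer, had 90.7, 444 and 698 CPM in control and 991, 1074 and 634 CPM in fasted libraries 1, 2 and 3. Fasted library 3 lay below control library 3, and control library 1 was 6.29-fold below the mean of the other 2 controls. On the log2 scale fasted libraries differed from control by 1.13 (SE 0.73, edgeR adjusted p = 0.430) with all libraries and 0.66 (SE 0.27, edgeR adjusted p = 0.292) without control library 1.

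Fosl1 and Fosl2, which encode FOS-related proteins without a strong activation domain, were near the background and were not part of the main test. Fosl1 (ENSMUSG00000024912.6, chromosome 19, 5447547 to 5455946, plus strand) had 57, 70 and 133 counts in control and 70, 198 and 97 counts in fasted libraries 1, 2 and 3, where the background alone would give 18.3 to 32.5. It shares 1163 of its 2033 exonic bases with Ccdc85b on the other strand. Fosl2 (ENSMUSG00000029135.10, chromosome 5, 32135801 to 32157842, plus strand) had 187, 478 and 477 counts in control and 346, 544 and 206 counts in fasted libraries 1, 2 and 3, against 87.0 to 155 expected from background. The groups overlapped for both genes. In the fit of all 36508 genes that passed the expression filter, their log2 fold changes were 0.74 (SE 0.39, edgeR adjusted p = 0.214) and 0.23 (SE 0.38, edgeR adjusted p = 0.693). The direction for Fosl2 rested on single libraries, with -0.11 without control library 1 and -0.14 without fasted library 2. Fosl1 passed without control library 3 (log2 fold change 1.24, edgeR adjusted p = 0.0466), while its adjusted p over all alternatives ran from that value to 0.765.

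JUN genes encode the partners that can also bind DNA as a pair of their own. Jun (ENSMUSG00000052684.4, chromosome 4, 95049034 to 95052222, minus strand, a single exon) had 622, 1056 and 981 CPM in control and 1245, 1394 and 1175 CPM in fasted libraries 1, 2 and 3. Every fasted library lay above every control library, also without control library 1. Fasted minus control came to a log2 value of 0.52 (SE 0.20, edgeR adjusted p = 0.203), and 0.32 (SE 0.14, edgeR adjusted p = 0.282) without control library 1. In the fit of all genes passing the expression filter it was 0.04 (SE 0.23, edgeR adjusted p = 0.921), where the median over all genes tested was 0.32 rather than 0.02. Jun was the sole member whose groups did not overlap, 1 of the 7 tested, while the groups did not overlap for 27.3% of all genes tested and were apart with fasted higher for 14.4% and lower for 12.9%. Without control library 1 it was again the sole member, against 37.3% of all genes (19.2% with fasted higher and 18.1% lower).

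Junb (ENSMUSG00000052837.7, under an earlier version in M21 at chromosome 8, 84974484 to 84978718, minus strand), a JUN protein that can dampen the activity of JUN, had 178, 585 and 629 CPM in control and 771, 828 and 579 CPM in fasted libraries 1, 2 and 3. Fasted library 3 lay just under the 2 higher controls. The difference on the log2 scale came to 0.65 (SE 0.47, edgeR adjusted p = 0.474), and 0.26 (SE 0.17, edgeR adjusted p = 0.452) without control library 1.

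Jund (ENSMUSG00000071076.6, chromosome 8, 70698949 to 70700616, plus strand, a single exon), the JUN gene known for steady rather than induced expression, had only 71, 166 and 227 counts in control and 97, 158 and 85 counts in fasted libraries 1, 2 and 3. Its mean was 5.89 times the background, just inside the limit of 5, and Fosl1 at 3.75 times was the nearest member outside. Of its 1668 exonic bases, 877 are shared with Gm11175 on the other strand, which was listed with 0 counts in all 6 libraries. The same held for 79 of 80 gene models (98.8%) that lie wholly within exons of a gene on the other strand at or above 5 times the background, against 2.33% of all genes of at least 200 bases. How reads over the shared bases were counted is not given in the sources used here, so the level of Jund per length is uncertain. Scaled to CPM, the control libraries had 2.53, 7.03 and 11.5 and the fasted libraries 8.43, 10.1 and 6.41, with overlapping groups. Its log2 fold change of 0.25 (SE 0.48, edgeR adjusted p = 0.791) turned to -0.15 without control library 1 and to -0.17 in the fit of all genes passing the expression filter.

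Atf3, a stress-induced bZIP gene whose protein pairs with JUN proteins and often represses, varied more between libraries than any other member. It lies at chromosome 1, 191170296 to 191218039, minus strand (ENSMUSG00000026628.13). Control library 1 held 53 counts, 2.74 times the background, while control libraries 2 and 3 held 2621 and 3086 counts and fasted libraries 1, 2 and 3 held 2439, 4456 and 1971 counts. Scaled to CPM, the control libraries had 1.89, 111 and 156 and the fasted libraries 212, 284 and 149, so control library 1 was 70.7-fold below the mean of the other controls and fasted library 3 lay below control library 3. Of the 10637 genes tested, Atf3 ranked 4 from the lowest by the ratio of control library 1 to the other 2 controls. This ranking was chosen after the values had been seen. Fosb ranked 68, Jund 216, Junb 230, Fos 282 and Jun 1327, and the quartiles over all genes were -0.36 and 0.25 on the log2 scale of that ratio. The log2 fold change of Atf3 was 1.26 (SE 1.27, edgeR adjusted p = 0.610), and 0.69 (SE 0.28, edgeR adjusted p = 0.287) without control library 1.

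Batf, a JUN partner of lymphoid and myeloid cells that lacks an activation domain of its own, ran the other way. Batf (ENSMUSG00000034266.6, chromosome 12, 85686669 to 85709087, plus strand) had 47.2, 28.9 and 35.2 CPM in control and 36.0, 29.1 and 27.7 CPM in fasted libraries 1, 2 and 3. Control library 1 was the highest and the other 5 libraries lay within a narrow band. Its log2 difference, fasted minus control, was -0.26 (SE 0.22, edgeR adjusted p = 0.516), and -0.05 (SE 0.20, edgeR adjusted p = 0.917) without control library 1. It was -0.81 (SE 0.27, edgeR adjusted p = 0.0664) in the fit of all genes passing the expression filter, and -0.84 with no filter on low counts, where it passed (edgeR adjusted p = 0.0437). With no filter, edgeR called 2849 of 52922 genes, 2218 of them lower. The median log2 fold change over all genes was 0.32 and 0.35 in these 2 fits, against 0.02 in the main fit. Batf made up 5.44% of the summed per-length level of the 9 genes in control library 1 and 0.856% to 1.63% in the other 5 libraries.

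Of the 7 members tested, none passed edgeR's quasi-likelihood test, nor did any of the 10637 genes (0% called). At an unadjusted p under 0.05 there were 2109 genes (19.8%) and 1 member, Jun. limma-voom also called 0 genes. DESeq2 called 502 genes, 326 of them higher, and none of the 7 members was among them (DESeq2 adjusted p from 0.172 for Jun to 0.820 for Jund). Over all 36508 genes that passed the expression filter, edgeR called 4.97% (1.15% higher and 3.82% lower in fasted libraries), and none of the 9 members. The fold change was above 0 for 6 of the 7 members, with a median of 0.65, beside 52.3% of all genes tested and a median of 0.02. With all libraries, the spread within the control group was wider than within the fasted group for the 9 members: the highest over the lowest library was 82.6-fold against 1.91-fold for Atf3, 7.69-fold against 1.69-fold for Fosb and 3.75-fold against 1.50-fold for Fos. Control library 1 was at an end of the control range for every member. Without it, a comparison added after the values had been seen, the fasted group had the wider spread for 6 of the 9 members, and controls 2 and 3 differed 1.41-fold for Atf3 and 1.57-fold for Fosb. Fos, Fosl1 and Jund kept the wider spread in control, at 1.54-fold for Fos. The control range then covered 2 libraries and the fasted range 3. A range over more libraries tends to be wider, so these counts cannot say which group varied more.

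**Figure D2:**
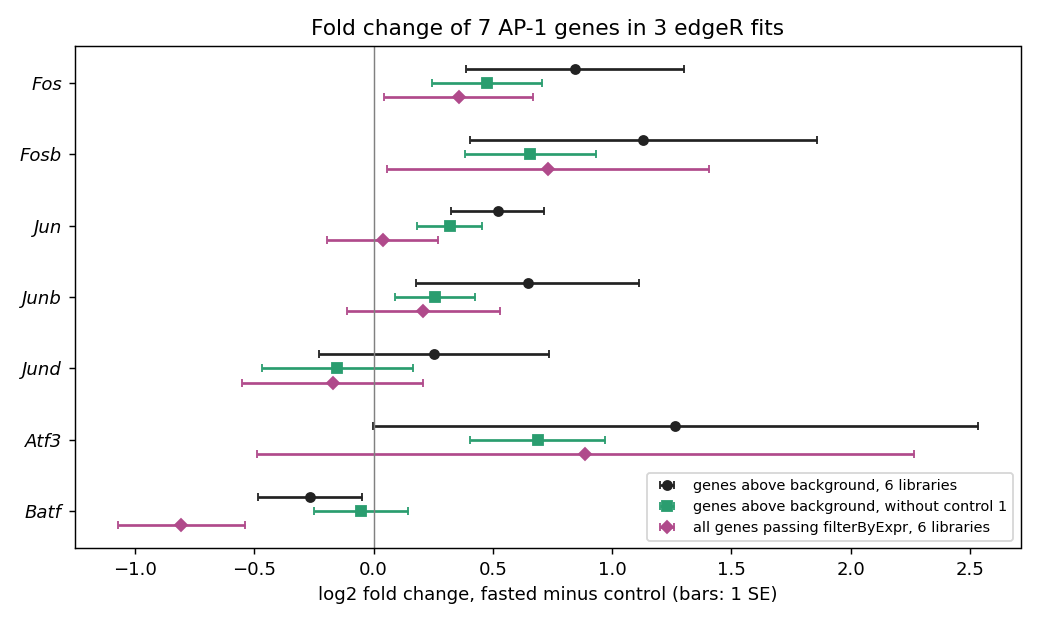
Log2 fold change, fasted minus control, of the 7 AP-1 genes above the background limit, with bars of 1 SE, in 3 edgeR fits. Leaving out control library 1 moved each value toward 0 or past it (Fos from 0.84 to 0.48, Jund from 0.25 to -0.15), and the fit of all genes passing the expression filter put Jun at 0.04.

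Per length, Fos had the highest level of the family in every library, at 650 ± 374 CPM per kilobase in control and 1168 ± 236 in fasted libraries (SD, n = 3 each). Jun and Junb followed, with control means of 278 ± 72.8 and 257 ± 138 and fasted means of 399 ± 35.0 and 401 ± 72.1, and their ranges overlapped in both groups. Fosb had 65.8 ± 48.8 and 144 ± 37.4, and Atf3 41.6 ± 36.8 and 99.8 ± 31.5. Within a library Fosb was above Atf3 in 6 of 6, although their ranges overlapped across libraries, whereas Jun was above Junb in 3 of 6. Junb was scaled by its deposited length of 1809 bases, while M21 gives 2301, with 173 shared with Prdx2 on the other strand. Over unshared M21 bases, control and fasted means would be 300 and 430 for Jun and 218 and 341 for Junb. The order of Jun and Junb thus depends on the length used. Batf had 26.4 ± 6.61 and 22.0 ± 3.16, inside the range of Atf3 in control and below it in fasted libraries. Jund had 4.20 ± 2.68 and 4.98 ± 1.10, and Fosl1 and Fosl2 were lower still on average, with control means of 1.92 and 1.76 and fasted means of 4.27 and 2.76. Counted over its 791 unshared exonic bases alone, Jund would reach 8.86 in control and 10.5 in fasted libraries and keep its place.

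**Figure D3:**
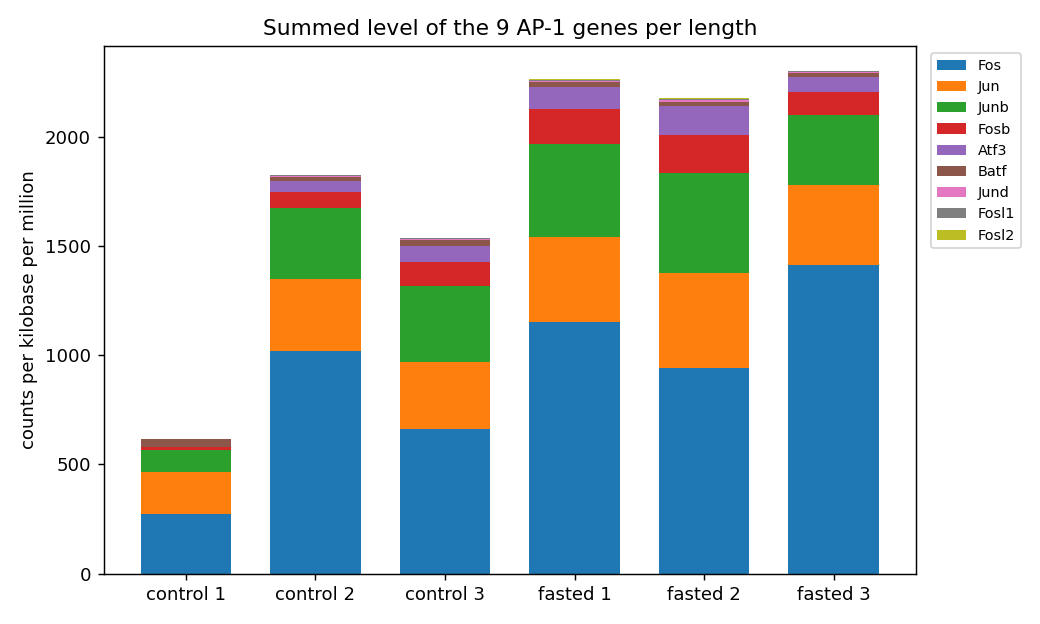
Level of the 9 AP-1 genes per length, stacked, in each library, in CPM per kilobase. The stack is 617 in control library 1, 1825 and 1538 in the other control libraries and 2175 to 2299 in fasted libraries, and Fos is the largest part of every stack.

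A ratio between 2 genes of a library does not depend on the scaling between libraries. It does depend on the background where a gene lies near it, as Jund did at 5.89 times. The uncertain level of Jund per length also enters its ratios. The log2 ratio of Fosb to Jund, per length, was 3.79 ± 0.46 in control and 4.84 ± 0.12 in fasted libraries (SD, n = 3 each), and every fasted library lay above every control library. The difference of 1.06 had an exact permutation p of 0.1 (two-sided), which is as low as this number of libraries can give, and 0.3 after Benjamini-Hochberg adjustment over 6 ratios. The ratio of Atf3 to Jund was likewise higher in every fasted library, by 2.23 (exact permutation p = 0.1, adjusted 0.3), and by 0.80 without control library 1. The differences for Fos, Junb, Fosl2 and Jun were 0.55, 0.36, 0.30 and 0.08, with exact permutation p from 0.2 to 1. No ratio passed. With Jun as the denominator, chosen after the values had been seen, no ratio separated the groups: Fosb differed by 0.97 and Atf3 by 2.14 (exact permutation p = 0.2 each).

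Genes around AP-1 were followed through lists written from general knowledge. The genes named from each list are among the 3 with the highest level per length, whatever their change. Of all genes tested, 52.3% had a fold change above 0 (median 0.02). Of 18 other bZIP genes that can pair or compete with AP-1 proteins, 10 lay above the background limit, 0 passed the edgeR test, and 3 had a fold change above 0 (median -0.08). Nfe2, a factor of platelet and globin genes, had 499, 256 and 212 CPM in control and 220, 169 and 193 CPM in fasted libraries 1, 2 and 3. Control library 1 stood out as high, as for Batf. The log2 fold change of Nfe2 was -0.73 (SE 0.31, edgeR adjusted p = 0.242), and in the fit of all genes passing the expression filter it passed as lower (edgeR adjusted p = 0.0405). In that fit 3.82% of all genes were called lower. Mafk, the small MAF partner of NFE2, had 0.47 (SE 0.36), and Nfe2l2, the NRF2 stress factor gene, had -0.09 (SE 0.19).

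Of 19 kinases and factors that act upstream of AP-1, 17 lay above the limit and 0 passed, with 11 above 0 and a median of 0.14. Map2k3, which activates p38 MAP kinase, had 129, 227 and 323 CPM in control and 361, 421 and 188 CPM in fasted libraries 1, 2 and 3, again with control library 1 lowest. Map2k2, encoding the MAP kinase kinase MEK2, had a log2 fold change of 0.21 (SE 0.12, edgeR adjusted p = 0.350). Of 6 genes of ubiquitin ligases that degrade JUN, 5 lay above the limit and 0 passed (median -0.04), and Ddb1, Cul4a and Itch had -0.18, -0.04 and 0.00.

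The feedback arm of the pathway was next. Of 11 genes for MAP kinase phosphatases and for proteins that destroy AU-rich mRNAs such as that of Fos, 9 lay above the limit. Of these 9, 0 passed and all had a fold change above 0 (median 0.69), beside 52.3% of all genes tested. Dusp1, a phosphatase of MAP kinases, had 608, 966 and 586 CPM in control and 866, 814 and 1237 CPM in fasted libraries 1, 2 and 3. Zfp36, encoding tristetraprolin, had 208, 872 and 644 CPM in control and 1089, 958 and 989 CPM in fasted libraries, with groups that did not overlap. For Zfp36 the log2 fold change reached 0.82 (SE 0.49, edgeR adjusted p = 0.393). Dusp2 had 46.8, 114 and 96.9 CPM in control and 185, 158 and 148 CPM in fasted libraries, again without overlap (0.93, SE 0.30, edgeR adjusted p = 0.170). Of all genes tested, 14.4% were likewise apart with fasted higher.

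Of 16 genes known to respond to AP-1, 9 lay above the limit and 0 passed, with 8 above 0 and a median of 0.44. Cd69, an early activation marker of leukocytes, had 48.4 CPM in control library 1, 379 and 305 CPM in the other controls and 377 to 427 CPM in fasted libraries. Vim and Cd44, encoding an intermediate filament protein and a hyaluronan receptor, had log2 fold changes of 0.34 (SE 0.48) and 0.06 (SE 0.21) with overlapping groups.

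Among the 5 genes whose pattern over the 6 libraries was most like that of Fos were Zfp36, Gem, Rasd1 and Hist1h4h, with a root mean square difference of 0.19 to 0.27 between log2 levels, each centred on its own mean. Those most like Jun were Psme4, Ppm1d, Nsmce4a, Stk35 and Ehd1, at 0.044 to 0.091. The search covered 8242 protein-coding genes above the background limit. Among the members, the pattern of Junb was closest to that of Jund (0.26), and the pattern of Atf3 was farthest from that of Batf (2.66).

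As a sum, other immediate early genes were also lowest in control library 1, and 0 of the 14 above the limit passed the edgeR test (median log2 fold change 0.81). Summed over 16 such genes, including Egr1, Ier2 and Klf6, control libraries 1, 2 and 3 held 1846, 4338 and 5226 CPM. Fasted libraries 1, 2 and 3 held 6275, 6362 and 4552 CPM. For 13 of the 14 above the limit, against 26.8% of all genes tested, control library 1 was the lowest library. Control library 1 also had the most counts and the lowest background. Its summed granulocyte and monocyte markers were inside the range of the fasted libraries, and its summed MEP and erythroid markers were inside the range of the others. Of the 12 granulocyte and monocyte markers, 2 (S100a8 and S100a9) were lowest of all libraries in control library 1, and 0 were highest there. Csf3r had 98.9 CPM there, above the 35.0 to 75.5 CPM of fasted libraries. Single MEP and erythroid markers differed: of the 9 above the limit, 4 (Kit, Gata1, Gfi1b and Klf1) were highest in control library 1, Kit with 688 CPM and Gata1 with 389.7 CPM there. The sums of the megakaryocyte, mast cell and lymphocyte markers also separated the groups, as given above. The part of depth, of background and of the makeup of the sorted cells in the AP-1 levels was not tested.

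**Figure D4:**
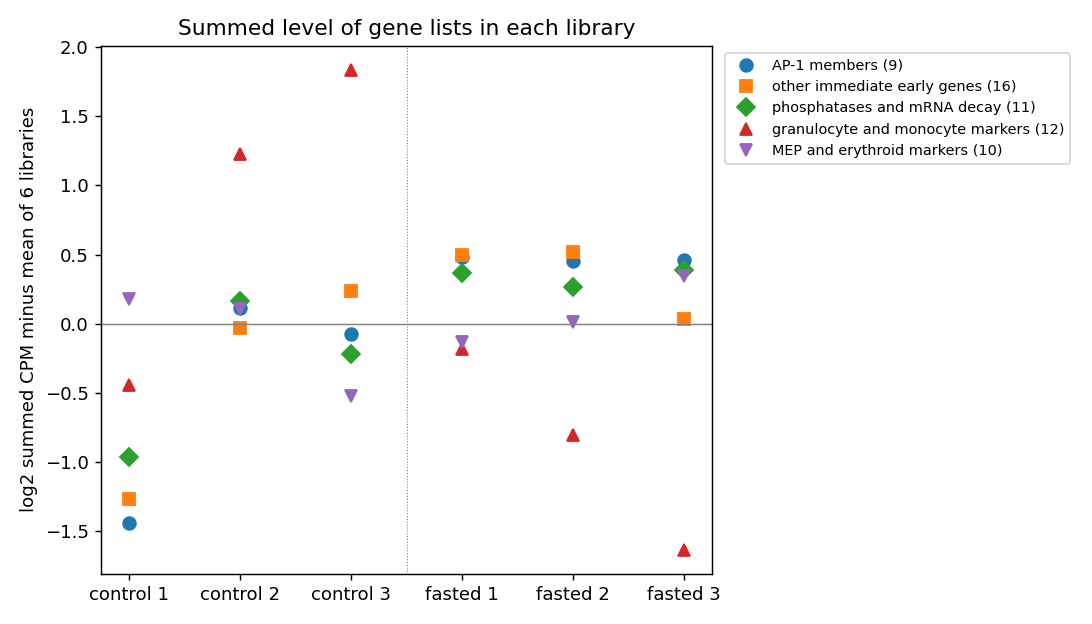
Summed CPM of 5 gene lists in each library, as log2 difference from the mean of the 6 libraries. AP-1 members, other immediate early genes and the phosphatase and mRNA decay genes are all lowest in control library 1 (1589, 1846 and 1088 CPM), whereas granulocyte and monocyte markers are highest in control libraries 2 and 3 (12230 and 18593 CPM).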

How the data were processed

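RNA of sorted MEP was sequenced in 6 libraries. The authors deposited raw counts per gene with exonic lengths. Per the submitters' processing notes, HISAT2 2.2.1, featureCounts 2.0.1 and GRCm38 were used. The annotation and strand setting are not given in the sources used here. Of 55487 identifiers, 54435 matched GENCODE M21 in version and exonic length, and M21 positions are printed.

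Genes passing filterByExpr with a mean count of at least 5 times the receptor-gene background times length were kept (10637), which removes genes whose scaling followed the background. edgeR 4.0.16 in R 4.3.3 (TMM, robust estimateDisp and glmQLFit, group as the only term) gave fold changes, with SE as the fold change divided by the square root of F. Adjusted p under 0.05 counted as passing. Alternatives used limma 3.58.1, DESeq2 1.42.0, other factors, filters and left-out libraries. Permutation tests used scipy 1.17.1. Tested on simulated data of 10637 genes (dispersion 0.1), the edgeR step recovered 193 of 200 genes given a 4-fold change (96.5%), with 8 false calls. The simulated libraries shared a single mean profile, without an outlying library or a background that differed between groups. Smaller changes, such as those of the members, were not simulated, so the recovery does not measure the power to detect them.

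The members and lists were chosen with earlier results of these data known. Genes were named by a rule: all members, the 3 highest per list, and the 5 most similar to Fos and to Jun. Some genes under this rule are not reported here.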

Additional observations from a re-analysis of the deposited data

How the results depend on the processing

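The count of genes passing (0) stayed at 0 with library totals, RLE and upper-quartile factors, limma-voom, background subtraction and a background multiple of 10, and lay between 0 and 3 with 1 library left out, at 3 without control library 1 and without control library 3. It was 502 with DESeq2, 1614 with a background multiple of 2, 1813 over all genes passing filterByExpr and 2849 with no filter. The cause was not tested. The last 3 settings covered more genes (20623, 36508 and 52922). Their median log2 fold changes over all genes were 0.08, 0.32 and 0.35, against 0.02 in the main fit. The adjusted p of the 7 tested members ranged from 0.0437 (Batf, no filter) to 0.990 over all alternatives.

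Fos, Fosb, Jun, Junb, Atf3 and Fosl1 kept a fold change above 0, and Batf below 0, in every alternative run. A value above 0 was not always above the typical gene. Over all genes passing filterByExpr and with no filter, the medians over all genes were 0.32 and 0.35. Jun (0.04 and 0.006) and Junb (0.21 and 0.18) lay below them, Fos (0.36 and 0.33) lay close to them, and Fosb, Atf3 and Fosl1 lay above. Jund reversed to -0.17 over all genes passing filterByExpr, -0.20 with no filter and -0.042 with a background multiple of 2, and ranged from -0.15 to 0.79 with 1 library left out. Fosl2 ranged from -0.14 to 0.54 with 1 library left out, below 0 without control library 1 (-0.11) and without fasted library 2 (-0.14). The log2 ratio of Jun to Jund differed by -0.31 to 0.45 with 1 library left out, and was -0.31 without control library 3 and -0.037 without fasted library 3. Background subtraction reversed no ratio. It lowered the difference for Fosl2 to Jund from 0.30 to 0.09 and raised the others, for Junb to Jund from 0.36 to 0.51.

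The labels number replicates 1 to 3 in both groups but do not say that the numbers pair the samples. The correlations of same-numbered deviations from the group means were -0.16, 0.13 and -0.27. Those of differently numbered samples ran from -0.14 to 0.27, so the correlations can neither show nor exclude a pairing. With the replicate block 0 genes passed, and log2 fold changes were 1.02 for Fos, 1.50 for Fosb, 0.55 for Jun, 0.82 for Junb, 0.46 for Jund, 2.12 for Atf3 and -0.24 for Batf, and in the fit of all genes 0.75 for Fosl1 and 0.26 for Fosl2. No paired analysis was run for the ratios because the labels do not say that the numbers pair the samples. At 53 to 227 counts, values of Jund, and of Atf3 in control library 1, have the widest counting error among the tested members.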

Other observations

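Single immediate early genes were far apart between control library 1 and the other libraries. Nr4a1, an orphan nuclear receptor gene, had 4.63 CPM in control library 1, 359 and 526 CPM in the other controls and 799, 876 and 412 CPM in fasted libraries 1, 2 and 3. Egr1, a zinc finger factor gene, had 171, 1260 and 1540.2 CPM in control and 2113, 1815 and 1316 CPM in fasted libraries. Hspa1a, an inducible heat shock gene, had 0.107 CPM in control library 1 and 6.87 to 41.0 CPM in the other 5. The first value was 3 counts over 2967 exonic bases, below the background of that library (8.98 counts per kilobase). Its distance from the others is therefore uncertain. Myc went the other way, with 1037 CPM in control library 1 and 277 to 415 CPM elsewhere. These genes were chosen after their values had been seen, and none passed the edgeR test (adjusted p from 0.329 for Myc to 0.815 for Hspa1a).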
